A study of Mus musculus with 6 samples.

Results

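The integrated stress response is a signalling pathway in which kinases that sense misfolded protein, amino acid shortage, haem shortage or viral RNA phosphorylate the translation factor eIF2 and favour translation of the transcription factor ATF4. In mouse jejunal organoids 10 genes of this response were examined, chosen by symbol from a named list out of the 18448 genes in the count table. They comprise the transcription factor genes Atf4, Atf5 and Ddit3, the regulator genes Ddit4, Trib3, Chac1 and Nupr1, and the amino acid synthesis genes Asns, Psat1 and Phgdh. All 10 passed the filter on low counts, and 14544 genes of the whole table did.

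ATF4 dimerises with other basic leucine zipper proteins and switches on genes for amino acid synthesis, amino acid uptake and tRNA charging. Under prolonged stress its targets also include genes that limit growth or promote cell death. Serine synthesis, which starts from a glycolytic intermediate and supplies glycine and one-carbon units, is one of the pathways that ATF4 is known to maintain in dividing cells. Control of ATF4 is largely translational, so mRNA counts do not measure the amount or activity of the protein.

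The organoids are epithelial cultures from C57BL/6 mice of the genotype Villin-CreERT2; Hnf4aflox/flox, so a villin promoter drives a tamoxifen-inducible Cre recombinase in epithelial cells and both Hnf4a alleles are floxed. The DMSO group (3 libraries) received vehicle and the 4OHT group (3 libraries) received 0.5 µM hydroxytamoxifen for 24 h, which activates Cre. Every culture of both groups also received 200 ng/mL recombinant mouse Wnt3A and was harvested at day 2 after the last passage. The labels list no group without Cre and no group without floxed alleles, so effects of the drug, of Cre and of Hnf4a loss cannot be told apart, and they do not say whether the replicates are separate organoid lines or animals.

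Libraries held 31537100 to 40276242 counts. Hnf4a, the targeted nuclear receptor gene, was at 840, 846 and 1021 CPM (counts scaled to library size) in the DMSO libraries and at 436, 424 and 482 CPM in the 4OHT libraries (log2 fold change -1.01, SE 0.0997, edgeR adjusted p = 0.0124). DMSO replicate 3 differed from the other DMSO libraries (chi-square per degree of freedom 55.2 and 50.6, beside 6.97 between DMSO replicates 1 and 2). Between the 4OHT libraries the values were 13.7 (replicates 1 and 2), 15.0 (1 and 3) and 27.7 (2 and 3). Some values that DMSO replicate 3 moves are therefore also given without it, and values given only over all libraries can depend on it. Markers of absorptive enterocytes were in place, with a summed level of 4110 to 7690 CPM over 11 markers with DMSO and 2978 to 4722 CPM with 4OHT. Of 10 immune and stromal markers 6 could be examined, with a summed level of 4.98 to 8.22 CPM with DMSO and 5.62 to 7.70 CPM with 4OHT, mostly from Vim, and Ptprc reached at most 0.126 CPM.

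ATF4 and its C/EBP partners bind a composite site known as the C/EBP-ATF response element, and the promoters that hold its core are shown here because they divide the 10 genes by a feature of sequence. Windows from 250 bases before to 50 bases after each RefSeq transcription start (GRCm38.p6), which need not be the end of the gene in GENCODE, were searched for TGATGNAA on both strands. All 10 genes had a window, and 4 of them, Asns, Chac1, Nupr1 and Trib3, held the motif, whereas 4.51% of the 27025 genes in the RefSeq table did. Stretches of 30 bases around each match are printed 5′ to 3′ on the strand of the gene, with the match in capitals.
Asns: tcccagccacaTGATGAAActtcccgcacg
Chac1: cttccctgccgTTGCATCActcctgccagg
Nupr1: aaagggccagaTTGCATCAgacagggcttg
Trib3: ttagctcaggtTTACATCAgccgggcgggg
The Asns stretch lies at chr6:7693214-7693243 (minus strand), with the motif as written and its leading base 23 bases before the start. The other matches read as the reverse complement of the motif. Chac1 has it at chr2:119351038-119351067 (plus strand), 193 bases before the start, and Nupr1 at chr7:126625562-126625591 (minus strand), 110 bases before a RefSeq start that lies inside the longer GENCODE gene. The Trib3 stretch is at chr2:152344028-152344057 (minus strand), and its match begins at base 15 after the start. The letters TGATGNAA were not found in the windows of Atf4, Atf5, Ddit3, Ddit4, Psat1 and Phgdh. The endoplasmic reticulum stress elements ERSE and ERSE-II, bound by ATF6 and searched on both strands in the same windows, matched 0 of the 10 genes, beside 0.137% and 0.0444% of all genes. A match describes letters only and does not show binding.

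Nupr1, which encodes a small stress-induced chromatin protein, rose after 4OHT, and the other 9 genes did not pass the test. Across all genes edgeR called 0.908% of the genes tested (0.701% higher and 0.206% lower), and 1 of the 10 was called. DESeq2 and limma-voom also called 1 of the 10, Nupr1. DESeq2 called 5.56% of the 13698 genes to which it gave an adjusted p, and limma-voom 0.846% of all genes. With the replicate number as a block edgeR called 2 of the 10, Nupr1 and Asns, where it called 6.99% of all genes (3.99% higher). The groups did not overlap for the same 2 genes, both higher with 4OHT, as for 22.6% of all genes (12.5% higher). The median log2 fold change of the 10 genes was 0.15, with 6 values above 0 and 4 below, and that of all genes tested was -0.0041.

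**Figure D1:**
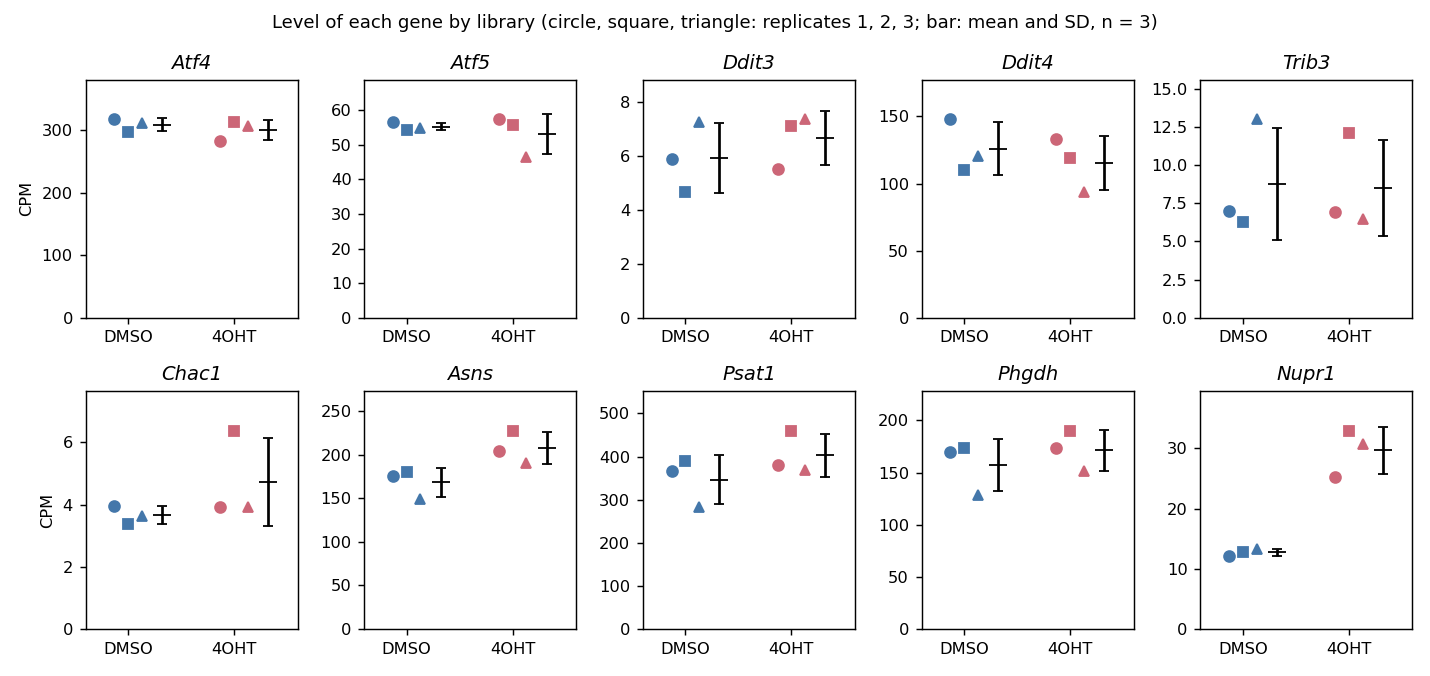
Level in CPM (vertical axis, linear from 0) of each of the 10 genes in the 3 DMSO libraries (blue) and the 3 4OHT libraries (red), with the mean and SD of each group (n = 3) as a black bar. The 4OHT points of Nupr1 (25.3 to 32.9 CPM) and Asns (191 to 228 CPM) lie above every DMSO point, and the groups overlap for the other 8 genes.

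Among the transcription factors, the Atf4 mRNA was nearly level over the 6 libraries. It was at 317, 297 and 312 CPM with DMSO and 282, 313 and 306 CPM with 4OHT, so that the groups overlapped and the highest library was 1.12 times the lowest. Group means were 309 ± 10.1 and 301 ± 16.2 CPM (SD, n = 3), and the log2 fold change was -0.04 (SE 0.0638, edgeR adjusted p = 0.827). Its 95% interval ran from 0.877-fold to 1.08-fold. The gene (ENSMUSG00000042406) is on chromosome 15 from 80255184 to 80257541 in GRCm38.

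Atf5, a related factor that is also controlled through upstream open reading frames and acts in the mitochondrial stress response, was at 56.6, 54.5 and 54.9 CPM with DMSO and at 57.4, 55.7 and 46.6 CPM with 4OHT. 4OHT replicate 3 was the lowest library, and the other 5 lay close together. The log2 fold change was -0.06 (SE 0.0856, adjusted p = 0.809), or 0.03 without 4OHT replicate 3, and the 95% interval ran from 0.836-fold to 1.11-fold. Atf5 lies on chromosome 7 from 44812256 to 44816658 and shares 82 exonic bases with Il4i1 and with Nup62 on the opposite strand.

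Ddit3 encodes CHOP, the factor that links prolonged stress to cell death. It was at 5.89, 4.65 and 7.25 CPM with DMSO and 5.53, 7.11 and 7.35 CPM with 4OHT, and both groups held high and low libraries. The log2 fold change was 0.17 (SE 0.194, adjusted p = 0.733), with a 95% interval from 0.819-fold to 1.55-fold. Without DMSO replicate 2, the lowest library, it was 0.02, and without DMSO replicate 3 it was 0.33 (adjusted p = 0.43). The gene is on chromosome 10 from 127290774 to 127296288 and shares 68 exonic bases with the methionyl-tRNA synthetase gene Mars on the opposite strand. The strand setting of the counting is not given in the sources used here, so reads from this overlap and from that of Atf5 cannot be assigned with certainty.

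Ddit4, which encodes the mTORC1 inhibitor REDD1, had the lowest log2 fold change of the 10 genes. Its levels were 148, 110 and 121 CPM with DMSO and 133, 119 and 93.8 CPM with 4OHT. DMSO replicate 1 was the highest library and 4OHT replicate 3 the lowest, and the groups overlapped. Ddit4 lies on chromosome 10 from 59949669 to 59951834. The log2 fold change was -0.13 (SE 0.153, adjusted p = 0.747, 95% interval 0.711-fold to 1.18-fold), and leaving out DMSO replicate 1 gave 0.00025, and leaving out 4OHT replicate 3 gave -0.0012.

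Trib3, a pseudokinase gene whose product feeds back on ATF4 and AKT, varied more between replicates than between groups. It was at 7.03, 6.31 and 13.03 CPM with DMSO and 6.93, 12.1 and 6.50 CPM with 4OHT. One library of each group was high, DMSO replicate 3 and 4OHT replicate 2, and the other 4 were close together. The log2 fold change was -0.04 (SE 0.347, adjusted p = 0.969), with a 95% interval from 0.551-fold to 1.71-fold. The value turned to 0.34 without DMSO replicate 3 and was -0.39 without 4OHT replicate 2. By replicate number the log2 differences were -0.02, 0.94 and -1.003, so 1 of the 3 pairs was higher with 4OHT. A blocked fit of replicates 1 and 2 alone, which called 2678 genes (18.3%), called Trib3 higher (log2 fold change 0.48, adjusted p = 0.0372), although the difference of replicate 1 was near 0.

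Chac1 encodes an enzyme that degrades glutathione and is a late target of ATF4. Its levels were 3.95, 3.37 and 3.64 CPM with DMSO and 3.92, 6.38 and 3.93 CPM with 4OHT. 4OHT replicate 2 alone stood above the DMSO range, with 227 counts where the other libraries had 112 to 156. The log2 fold change was 0.38 (SE 0.22, adjusted p = 0.481, 95% interval 0.905-fold to 1.86-fold), and it was 0.10 without 4OHT replicate 2.

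Asns, which encodes the asparagine synthetase that makes asparagine from aspartate and glutamine, had its 3 highest values in the 4OHT libraries. It was at 176, 180 and 149 CPM with DMSO and 204, 228 and 191 CPM with 4OHT. The groups averaged 168 ± 16.7 and 208 ± 18.5 CPM (SD, n = 3), a 1.23-fold difference (log2 fold change 0.30, SE 0.0966), which did not pass over all genes (adjusted p = 0.211) although its unadjusted p was 0.0162. Of all genes tested, 8.65% were higher at an unadjusted p under 0.05. By replicate number the log2 differences were 0.22, 0.34 and 0.36. With the replicate block Asns rose (log2 fold change 0.30, SE 0.0476, adjusted p = 0.0253). In unblocked fits it was 0.22 without DMSO replicate 3 (adjusted p = 0.243) and 0.27 without replicate 3 of both groups (adjusted p = 0.0701). The gene lies on chromosome 6 from 7675169 to 7693254.

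The serine synthesis genes shared their highest and lowest library with Asns and differed less between the groups. Phgdh encodes the dehydrogenase that commits a glycolytic intermediate to serine synthesis, and it was at 170, 173 and 129 CPM with DMSO and 173, 190 and 151 CPM with 4OHT. Psat1 encodes the aminotransferase of the following step, and it was at 367, 389 and 282 CPM with DMSO and 381, 460 and 368 CPM with 4OHT. The groups overlapped for both genes, DMSO replicate 3 was the lowest of the 6 libraries for both, and 4OHT replicate 2 the highest. The log2 fold change was 0.22 for Psat1 (SE 0.14, adjusted p = 0.52, and 0.121 with the block) and 0.12 for Phgdh (SE 0.134, adjusted p = 0.721, and 0.199 with the block). The 4OHT library was the higher one in all 3 same-numbered pairs of each gene. Without DMSO replicate 3 the values were 0.08 and -0.0091, and without 4OHT replicate 2 they were 0.11 and 0.04. Replicate 3 was the lowest library of both groups for both genes, and with replicate 3 of both groups left out the values were 0.15 and 0.07 (adjusted p = 0.477 and 0.597, or 0.0535 and 0.305 with the block). The 95% intervals reached from 0.925-fold to 1.46-fold for Psat1 and from 0.875-fold to 1.36-fold for Phgdh. Psat1 lies on chromosome 19 from 15904678 to 15947337 and Phgdh on chromosome 3 from 98313170 to 98339990.

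Nupr1 was at 12.1, 12.8 and 13.2 CPM with DMSO and 25.3, 32.9 and 30.8 CPM with 4OHT. The DMSO libraries were close together, and the lowest 4OHT library was well above all of them. The groups averaged 12.7 ± 0.541 and 29.6 ± 3.96 CPM (SD, n = 3), a 2.33-fold rise (log2 fold change 1.22, SE 0.111, edgeR adjusted p = 0.00944, 95% interval 1.94-fold to 2.80-fold). By p it ranked 17 among the genes tested. By replicate number the log2 differences were 1.06, 1.37 and 1.22. Leaving out DMSO replicate 1, DMSO replicate 2 or 4OHT replicate 3 raised the adjusted p to 0.0576, 0.0606 and 0.0621, with log2 fold changes of 1.19, 1.22 and 1.19. Nupr1 (ENSMUSG00000030717) lies on chromosome 7 from 126623249 to 126630861. In the authors' deposited table its log2 fold change was 1.221 with an edgeR adjusted p of 1.2e-11, and Asns, at 0.303, had an edgeR adjusted p of 0.23 there.

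**Figure D2:**
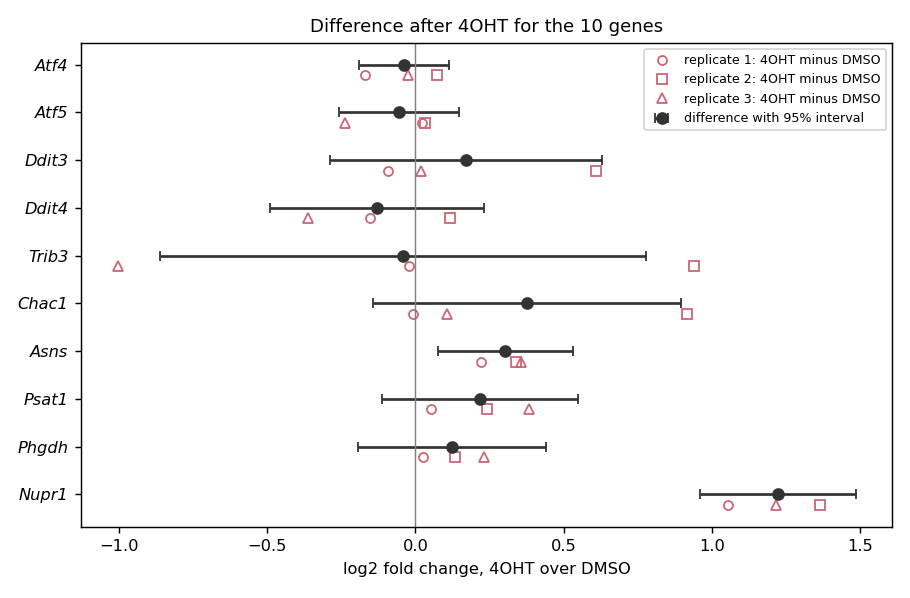
Log2 fold change of 4OHT over DMSO (horizontal axis) for the 10 genes, as filled circles with their 95% interval from edgeR, with the difference between same-numbered libraries as open symbols (circle, square and triangle for replicates 1, 2 and 3). The interval of Nupr1 runs from 0.96 to 1.48, that of Asns from 0.08 to 0.53, and the other 8 intervals include 0.

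The RNA came from whole cultures, so for every gene a change in the number of cells that express it and a change in RNA per cell cannot be told apart. Cell type markers differed between the same libraries. The summed level of 7 goblet cell markers was 2003 to 3810 CPM with DMSO and 3355 to 5772 CPM with 4OHT, and 7 of 7 had a positive log2 fold change (0 called by edgeR, 6 with the block). Without DMSO replicate 3 edgeR called 5 of the 7 higher (median 1.24), beside 2.29% of all genes. Without replicate 3 of both groups it called 6 higher (median 0.98), beside 4.10% of all genes. Over all libraries the 11 enterocyte markers had a negative log2 fold change (median -0.51, 0 called and 2 with the block). The median was -0.14 without DMSO replicate 3, with 9 of 11 negative, and -0.30 without replicate 3 of both groups, with 11 of 11 negative. The sum of 6 Paneth cell markers was 1911 to 2230 and 1845 to 1964 CPM, with 1 of the 6, the lysozyme gene Lyz1, called lower. Relative to replicates 1 and 2 of the same group, replicate 3 had a median log2 difference of 0.94 (DMSO) and 0.62 (4OHT) in goblet cell markers and of 0.83 and 0.38 in enterocyte markers. For Nupr1 the same differences were 0.09 and 0.09. The part of these cell types in the rise of Nupr1 was not tested.

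Levels of different genes were compared per kilobase of exon (CPM divided by the length of the merged exons in GENCODE M21). Atf4 was highest with DMSO, at 131 ± 4.3 CPM per kb (SD, n = 3). Psat1 (81.4 ± 13.3), Ddit4 (71.8 ± 11.2), Phgdh (63.3 ± 10.05) and Asns (61.6 ± 6.09 CPM per kb) came next, and each overlapped its neighbour in this order over the 3 libraries. Atf5 was at 27.8 ± 0.551 CPM per kb and overlapped neither neighbour. Nupr1 (5.06 ± 0.215), Trib3 (4.14 ± 1.73) and Ddit3 (3.46 ± 0.757 CPM per kb) overlapped in turn, and Chac1 was lowest at 2.23 ± 0.175. With 4OHT, Asns stood above Phgdh and Ddit4, with overlap, and Nupr1 (11.8 ± 1.57 CPM per kb) no longer overlapped Trib3 (4.01 ± 1.48). By this measure the genes fell into an abundant group, with Atf4, Ddit4 and the synthesis enzymes, and a scarce one, with Nupr1, Trib3, Ddit3 and Chac1. Atf5 lay between them. The place of Nupr1 depends on its length, here 2514 exonic bases of a GENCODE gene that contains the RefSeq start. A shorter transcript would give it a higher level per kilobase.

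The libraries of a group were not alike for these genes. Among the 4OHT libraries, replicate 2 had the highest level for 7 of the 10 genes, beside 36.1% of all genes tested, and the lowest for 0 of the 10. Lists of other genes of the response differed in this. Replicate 2 was the highest 4OHT library for 16 of 18 cytosolic tRNA synthetase genes, 9 of 12 one-carbon enzymes, 8 of 11 further ATF4 target genes and 5 of 6 mitochondrial genes. It was highest for 6 of 12 eIF2 genes, 4 of 9 transporters, 3 of 6 apoptosis genes and 2 of 7 partner factors, and for 0 of 17 genes of the IRE1 and ATF6 branches, for which replicate 3 was highest in 15. With DMSO, replicate 3 was highest for 16 of those 17 genes and lowest for 15 of the 18 synthetase genes (41.1% and 41.9% of all genes). Nupr1 differed between the groups by more than the libraries of a group differed from each other, and Trib3 and Chac1 by less.

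**Figure D3:**
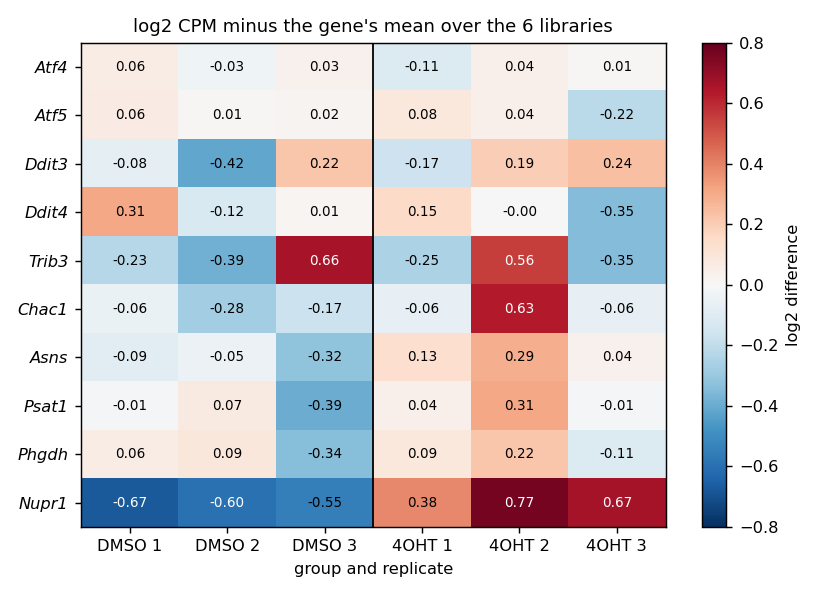
Log2 CPM of each gene (rows) in each library (columns, group and replicate number) minus the gene's mean over the 6 libraries, red above and blue below. 4OHT replicate 2 is 0.56 above the mean for Trib3 and 0.63 above it for Chac1, DMSO replicate 3 is 0.66 above it for Trib3, and Nupr1 separates the groups, from -0.67 to -0.55 with DMSO and from 0.38 to 0.77 with 4OHT.

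By the size of their range over the 6 libraries, Nupr1 and Trib3 were the most variable of the 10 genes. The genes with the most similar profiles were sought among 10386 genes averaging 5 CPM or more, by the root mean square difference of log2 CPM after each profile was centred on its own mean. For Nupr1 they were Fgf1 (0.09), a growth factor gene, Fam129a (0.13), which encodes the protein Niban, and Hk1 (0.15), a hexokinase gene. Fam129a was at 16.0, 15.7 and 14.2 CPM with DMSO and 29.1, 34.2 and 31.2 CPM with 4OHT. For Trib3 they were Selenbp1 (0.12), Prelid2 (0.16) and Ppargc1a (0.16), a coactivator gene of mitochondrial biogenesis. Selenbp1, a selenium-binding protein gene, had the same pair of high libraries, at 56.8 CPM in DMSO replicate 3 and 57.6 CPM in 4OHT replicate 2, with 26.6 to 30.5 CPM in the other 4.

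The rest of the pathway was followed in 9 lists with 98 tested genes. edgeR called 0 of the 98, and limma-voom called 0. Unadjusted p-values were under 0.05 for 12 higher and 4 lower genes (8.65% and 6.35% of all genes). DESeq2 called 6 (6.12% of the 98, beside 5.56% of the 13698 genes with an adjusted p). These were Jdp2, Gldc and Wars higher and Cth, Aldh18a1 and Shmt1 lower. With the replicate block edgeR called 11 (11.2%, beside 6.99% of all genes), 8 higher and 3 lower.

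Upstream of ATF4, the 4 eIF2 kinase genes and the phosphatase and eIF2B subunits were followed as 12 genes. edgeR, DESeq2 and limma-voom called 0 of them, with and without the block in edgeR, and 3 were higher at an unadjusted p under 0.05 (8.65% of all genes). These 3 did not overlap between groups (12.5% of all genes). The median log2 fold change was 0.07, and 0.0047 without replicate 3 of both groups. With the block as well as that drop edgeR called 2 of the 12 higher, Ppp1r15a and Ppp1r15b (16.7%, beside 18.3% of all genes). Ppp1r15a, the stress-inducible eIF2 phosphatase subunit GADD34, was at 7.45, 7.73 and 7.76 CPM with DMSO and 8.90, 10.6 and 9.74 CPM with 4OHT (log2 fold change 0.35, adjusted p = 0.177). Its constitutive relative Ppp1r15b was at 220.5 ± 6.02 and 248 ± 8.49 CPM (0.17, adjusted p = 0.223), and the kinase gene Eif2ak3, which encodes PERK, at 34.9 ± 0.644 and 39.1 ± 1.23 CPM (0.17, adjusted p = 0.237). Eif2b1, a subunit of the eIF2 exchange factor, was at 105 and 114 CPM (adjusted p = 0.432).

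Of 7 partner or related factor genes, edgeR without the block and limma-voom called 0. DESeq2 called 1 (14.3%, beside 5.56% of genes with an adjusted p). At an unadjusted p under 0.05, 1 was higher (8.65% of all genes). With the block edgeR called 2, both higher (28.6%, beside 3.99% of all genes). Jdp2, which encodes a repressor of the AP-1 family, was at 3.31, 2.91 and 1.66 CPM with DMSO and 5.10, 7.90 and 5.61 CPM with 4OHT. Its groups did not overlap (as for 12.5% of all genes, higher), and it rose with the replicate block (log2 fold change 1.25, adjusted p = 0.0371, beside 0.109 without the block). Nfe2l2, the NRF2 gene, rose with the block as well (from 293 to 358 CPM, adjusted p = 0.0359, beside 0.373 without). Cebpa was at 118 and 101 CPM (adjusted p = 0.527) and Cebpg, an ATF4 dimer partner, at 90.0 and 81.9 CPM (adjusted p = 0.556). The promoter windows of Jdp2 and Atf3 held TGATGNAA, 2 of the 7, as did 0 of the 10 eIF2 genes with a window, beside 4.51% of all genes. In the other lists some genes had no window. Of those with one, 5 of 10 tRNA synthetase genes, 4 of 9 further ATF4 target genes and 2 of 6 transporters held the letters. So did 0 of 10 one-carbon enzymes, 0 of 13 genes of the IRE1 and ATF6 branches, 0 of 5 mitochondrial genes and 0 of 3 apoptosis genes.

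Among 11 tested further targets of ATF4 the blocked fit called 2, both lower, beside 6.99% of all genes (3.00% lower). Aldh18a1, the enzyme of proline synthesis from glutamate, was at 404, 384 and 445 CPM with DMSO and 341, 304 and 287 CPM with 4OHT. It fell with the replicate block (log2 fold change -0.40, adjusted p = 0.0448, and 0.0957 without). Cth, the cystathionine gamma-lyase gene of cysteine synthesis, was at 40.9, 42.0 and 82.0 CPM with DMSO and 28.0, 30.3 and 33.8 CPM with 4OHT, and fell with the block (-0.77, adjusted p = 0.0486, and 0.216 without). DMSO replicate 3 was the highest library for both, and without it the log2 fold change of Cth was -0.44 (adjusted p = 0.0589). With replicate 3 of both groups left out edgeR called Cth lower (-0.51, adjusted p = 0.014) and Vldlr higher (0.77, adjusted p = 0.0354), beside 4.10% of all genes. With the block as well it called 3 higher and 3 lower of the 11, beside 18.3% of all genes. Over all 6 libraries Vldlr, a lipoprotein receptor gene, was higher in every 4OHT library, at 41.3, 57.2 and 30.6 CPM against 27.4 to 29.9 CPM (0.60, adjusted p = 0.242), as was the alanine aminotransferase gene Gpt2 (12.5 and 14.1 CPM, adjusted p = 0.398).

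The other genes of serine, glycine and one-carbon metabolism had differences of both signs. Of 12 tested, 7 had a positive and 5 a negative log2 fold change (median 0.04), and edgeR and limma-voom called 0. DESeq2 called 1 higher and 1 lower (16.7%, beside 5.56% of genes with an adjusted p). Without DMSO replicate 3, 4 were positive and 8 negative (median -0.03). Without replicate 3 of both groups 6 were positive and 6 negative (median -0.0038). With the block as well edgeR called 2 higher and 2 lower (33.3%, beside 18.3% of all genes). Over all libraries the following held. Unadjusted p-values were under 0.05 for 2 higher and 2 lower genes (8.65% and 6.35% of all genes). Shmt1, the cytosolic serine hydroxymethyltransferase, was at 127, 143 and 141 CPM with DMSO and 107, 114 and 100.2 CPM with 4OHT, with no overlap. It fell with the replicate block (-0.35, adjusted p = 0.0289, and 0.085 without). Gldc, the glycine decarboxylase gene, was scarce, at 1.08, 0.354 and 0.260 CPM with DMSO and 2.49, 1.15 and 1.94 CPM with 4OHT, and rose with the block (1.77, adjusted p = 0.0393, and 0.203 without). The folate enzyme gene Aldh1l1 (64.9 and 48.7 CPM, -0.41, adjusted p = 0.28) missed the threshold, and its value was -0.22 without DMSO replicate 3.

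Amino acid transporters and tRNA synthetases showed small differences. Of 9 transporter genes edgeR, DESeq2 and limma-voom called 0 (median log2 fold change 0.07). At an unadjusted p under 0.05, 1 was higher (8.65% of all genes). Slc7a5, the light chain of the large neutral amino acid transporter, rose with the block (from 115 to 136 CPM, 0.24, adjusted p = 0.0436, and 0.598 without). Its log2 fold change was 0.07 without DMSO replicate 3 (no block). Without replicate 3 of both groups it was 0.20 (adjusted p = 0.208), and 0.20 with the block as well (adjusted p = 0.00263). The glycine transporter gene Slc6a9 was at 56.9 and 75.0 CPM (adjusted p = 0.313), Slc38a2 at 337 and 370 CPM (0.426) and Slc7a1 at 206 and 222 CPM (0.573). Of 18 synthetase genes 16 had a positive log2 fold change (median 0.05), and edgeR and limma-voom called 0. DESeq2 called 1 (5.56%, the same share as of all genes with an adjusted p). At an unadjusted p under 0.05, 1 was higher (8.65% of all genes). Without DMSO replicate 3, 8 were positive and 10 negative (median -0.0047). Without replicate 3 of both groups 12 were positive and 6 negative (median 0.03). Wars, which charges tryptophan tRNA and is also an interferon-inducible gene, was at 259, 264 and 239 CPM with DMSO and 304, 307 and 302 CPM with 4OHT, and rose with the block (0.26, adjusted p = 0.037, and 0.109 without). Cars (94.7 and 110 CPM, adjusted p = 0.393), Hars (108 and 116 CPM, 0.448) and Mars (147 and 156 CPM, 0.572) did not pass.

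Genes of the IRE1 and ATF6 branches of the unfolded protein response had a median log2 fold change of 0.00029 over 17 genes, 9 above 0 and 8 below. edgeR without the block, DESeq2 and limma-voom called 0, and 1 was higher at an unadjusted p under 0.05 (8.65% of all genes). Without DMSO replicate 3 the median was 0.08, with 14 above 0 and 3 below. Without replicate 3 of both groups it was 0.04, with 13 above 0 and 4 below. Ern2, the IRE1 isoform of mucus-secreting epithelium, was at 25.9, 28.6 and 43.0 CPM with DMSO and 46.2, 41.6 and 57.2 CPM with 4OHT, with overlap, and rose with the block (0.59, adjusted p = 0.0236, and 0.261 without). Without DMSO replicate 3 it also passed (0.82, adjusted p = 0.038). The 7 goblet cell markers also had positive log2 fold changes (median 0.81), and their part in the value of Ern2 was not tested. The chaperone and quality control genes Creld2 (adjusted p = 0.471), Sel1l (0.477) and Sec61b (0.593) did not pass.

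Of 6 mitochondrial chaperone and protease genes 0 were called by edgeR with or without the block, DESeq2 or limma-voom, and 0 were at an unadjusted p under 0.05 (median -0.05). Oma1, the protease that relays mitochondrial stress, was at 21.3 and 23.2 CPM (adjusted p = 0.513), Hspa9 at 780 and 733 CPM (0.544), Hspe1 at 193 and 183 CPM (0.626) and Clpp at 43.6 and 42.2 CPM (0.731). Among 6 apoptosis genes linked to Ddit3 edgeR without the block, DESeq2 and limma-voom called 0. Of these 6, 2 were higher at an unadjusted p under 0.05 (8.65% of all genes), and the median log2 fold change was 0.27. Without replicate 3 of both groups edgeR called 0. With the block as well it called 4 higher and 1 lower (83.3%, beside 18.3% of all genes). With the block over all libraries 2 rose (33.3%, beside 3.99% of all genes). These were Tnfrsf10b, the death receptor gene (36.5 and 46.3 CPM, 0.34, adjusted p = 0.0448, and 0.177 without), and Bcl2, which is anti-apoptotic and which CHOP is known to repress (23.8 and 29.4 CPM, 0.31, adjusted p = 0.0373, and 0.151 without). Ero1l, an oxidase of the endoplasmic reticulum, was at 165, 311 and 168 CPM with 4OHT against 139, 148 and 196 CPM with DMSO (adjusted p = 0.515), with 4OHT replicate 2 high, and Bcl2l11 was at 27.6 and 32.4 CPM (adjusted p = 0.586).

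**Figure D4:**
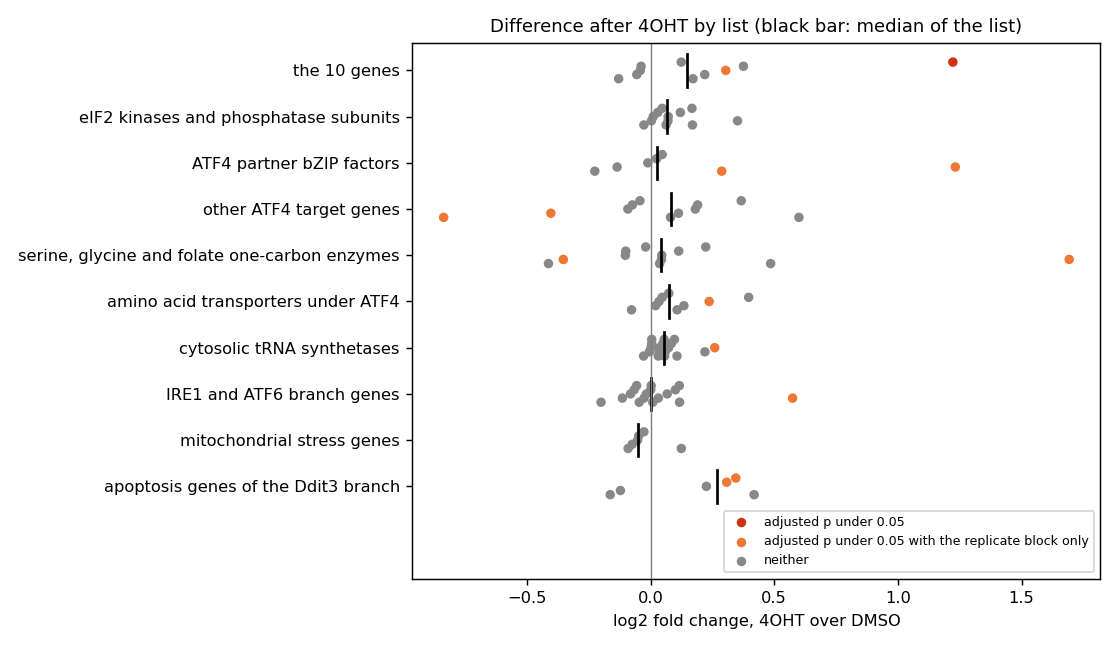
Log2 fold change of 4OHT over DMSO (horizontal axis) for each tested gene of the 10 genes and of the 9 pathway lists (rows; the vertical scatter within a row carries no value), with the median of each list as a black bar. The list medians lie between -0.05 and 0.27, and Nupr1 is the 1 gene called by edgeR without the replicate block, with 12 genes called only with it.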

How the data were processed

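Poly(A) RNA was sequenced in 6 libraries. STAR 2.4.0f1, bcl2fastq 1.8.4 and build GRCm38 are named per the submitters' processing notes; the kit keeps strand per the labels' protocols, and the counting program and its strand setting are not given in the sources used here. The authors deposited raw counts per gene, a normalised score per library (a scaled, rounded count, not used), a log2 fold change, a mean log2 level, and DESeq and edgeR p-values, per the file headers.

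Counts were tested in R 4.3.3 with edgeR 4.0.16 (quasi-likelihood F test, TMM scaling, filterByExpr, 14544 genes kept and 3904 removed), with Benjamini-Hochberg adjustment over all tested genes and a threshold of 0.05. CPM refer to TMM-adjusted library sizes, and log2 CPM per library had 0.5 counts added. Intervals (95%) follow from the fold change and its SE. limma 3.58.1 (voom) and DESeq2 1.42.0 were alternatives, as were other scalings and filters, leaving out 1 library or replicate 3 of both groups, and the replicate number as a block. On counts simulated for this comparison with 14544 genes, the edgeR test recovered 38% of genes changed 1.5-fold and 60% of those changed 2-fold.

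Replicates 1, 2 and 3 occur in both groups. Across genes, same-numbered libraries deviated together (correlation of their deviations 0.29, 0.31 and 0.41, beside -0.35 to 0.07 for other pairs). Each gene's deviations were taken from its group mean, so the values of other pairs depend on those of same-numbered pairs. A blocked fit is given beside the main fits, which carry no replicate term. This pairing comes from these data and not from the labels. The p-values thus reflect variation among these libraries alone, possibly technical in part.

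The 10 genes and the lists were chosen with earlier results of these data known. Named were the 10 genes, Hnf4a, up to 4 tested genes with the smallest p of each of 9 pathway lists, and the 3 genes nearest in profile to the 2 most variable of the 10. Other genes named (Atf3, Vim, Ptprc, Lyz1, Il4i1) were chosen after their values were seen. One gene that this rule names is not reported here.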

Additional observations from a re-analysis of the deposited data

How the results depend on the processing

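Nupr1 kept a positive log2 fold change in all 15 alternatives (1.14 to 1.31 when 1 library was left out) and its call in 12 of them; Asns (0.22 to 0.36 when 1 library was left out) was called in 2, with the replicate block (0.30) and with the replicate block without replicate 3 of both groups (0.27). Atf4, Ddit3, Chac1 and Psat1 kept their sign and were called in 0 of their alternatives. Values near 0 changed sign: Atf5 (-0.12 to 0.031 when 1 library was left out, 0.020 without replicate 3 of both groups, or 0.020 if blocked), Ddit4 (-0.25 to 0.00025), Phgdh (-0.0091 to 0.21) and Trib3 (-0.39 to 0.34, 0.51 without replicate 3 of both groups, or 0.48 if blocked). Among the genes near Trib3 in profile, Selenbp1 ran from -0.46 to 0.38 when 1 library was left out, Prelid2 from -0.18 to 0.45 and Ppargc1a from -0.33 to 0.15, and without replicate 3 of both groups Selenbp1 was 0.58 (0.52 with the block) and Ppargc1a 0.29 (0.29 with the block). The cause was not tested.

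Of the 10 genes 2 were called with the replicate block, 3 with the block after dropping replicate 3 of both groups, and 0 to 1 when 1 library was left out (0 without DMSO replicate 1, DMSO replicate 2 or 4OHT replicate 3). Across all genes, edgeR called 132, and 49 among genes averaging 10 CPM or more, where fewer genes were tested and Ddit3, Trib3 and Chac1 were left out. DESeq2 called 762 and the replicate block 1017; without replicate 3 of both groups 601 were called, 2678 with the block as well, and 4 to 340 when 1 library was left out (340 without DMSO replicate 3). Among the 98 pathway genes, 26 were called with the block after dropping replicate 3 of both groups, 19 higher and 7 lower (26.5%, beside 18.3% of all genes). After the same drop 3 were called without the block (3.06%, beside 4.10% of all genes). Ddit3, Trib3 and Chac1 had 112 to 432 counts per library.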
